A study of Mus musculus with 10 samples.

Results

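Bone morphogenetic protein (BMP) signalling was described through 10 genes: the ligand genes Bmp7, Bmp2, Bmp4 and Bmp6, the receptor genes Bmpr1a and Bmpr2, the extracellular antagonist and modulator genes Grem1, Nog and Bmper, and the target gene Id1. Every probe set of the array that the platform annotation assigned to exactly 1 gene, that gene being 1 of these 10, was taken, which gave 10 of 18193 measured genes and 19 of 45037 probe sets tested. The tissue was glomeruli, the filtering units of the kidney, isolated from unweaned male mice aged 27 days after magnetic beads had been perfused through the heart. The 5 mutant mice (Wt1 +/R394W) were heterozygous for a knock-in of the R394W change in Wt1, a zinc finger transcription factor gene of podocytes, the epithelial cells of the filter. The 5 wild-type littermates (Wt1 +/+) carried no such allele, and all 10 mice were on the FVB/N strain after 4 backcross generations. The mutants had little albuminuria and no mesangial lesions by light microscopy, as the submitters describe them, so this is a model before visible lesions, and both genotypes were sampled at a single age.

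BMPs are secreted as precursors that proprotein convertases cleave into mature dimers. A dimer brings type I receptors such as BMPR1A and type II receptors such as BMPR2 together, the receptors phosphorylate SMAD proteins, and these switch on genes such as those of the Id family. Secreted antagonists, among them gremlin and noggin, bind the ligands and keep them from the receptors. In the kidney Bmp7 is required for nephron formation, and its transcript in mouse is known from podocytes, distal tubule and collecting duct.

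Values are log2 expression values normalized by the authors, so a difference of 1 is a doubling. A change is the Wt1 +/R394W mean minus the Wt1 +/+ mean, given with its standard error (SE) for 5 mice of each genotype. It was tested with limma over all probe sets, and a call required an adjusted p under 0.05. Levels of different probe sets are not compared, because each probe set has its own brightness. All 7 measured podocyte markers lay in the brightest part of the array, from the 97.4th percentile of mean signal (Cd2ap) upward, and none of them was called. Tubule RNA varied widely within both genotypes: the mean of 18 proximal tubule markers ran from 7.09 to 10.66 in Wt1 +/R394W and from 6.99 to 9.59 in Wt1 +/+ glomeruli. The mean of 18 distal nephron markers ran from 6.49 to 7.91 in Wt1 +/R394W and from 6.52 to 7.79 in Wt1 +/+ glomeruli. In each genotype the mouse numbered 5 had the lowest level of both tubule lists. Wt1 itself read 11.63 ± 0.16 in Wt1 +/R394W and 11.30 ± 0.17 in Wt1 +/+ glomeruli (SD, n = 5 each, limma adjusted p = 0.244), and since R394W is a missense change the transcript level does not check the genotype labels.

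All 6 ligand probe sets had a positive change, from 0.39 to 1.04 on the log2 scale, and 2 of them passed the test (Bmp4 and 1 of 3 for Bmp7). None of the 9 receptor probe sets passed, with changes between -0.08 and 0.12. None of the 3 antagonist and modulator probe sets passed, nor did Id1, whose change was negative. In all, 2 of 19 probe sets were called, both higher, beside 0.391% of all probe sets called higher, 0.462% called lower and 0.853% called in either direction. The genes were chosen with earlier results of these data known, so counts of them beside such shares do not test the group. The genotypes did not overlap in 4 of the 19, all higher in Wt1 +/R394W, beside 1.3% of all probe sets apart and higher, 1.48% apart and lower and 2.78% apart in either direction. These 4 were the 3 Bmp7 probe sets, read from the same RNA, and that of Bmp4, so they stand for 2 genes. The median change was 0.03 over the 19 probe sets and -0.0022 over all probe sets tested, and the median size of change, whatever its sign, was 0.08 over the 19 and 0.07 over all. Receptor probe sets make up 9 of the 19. With 1 probe set per gene, that of the highest mean, the median change was 0.23 over the 10 member genes and 0.0043 over all genes. The median size of change was then 0.40 over the member genes and 0.07 over all genes. Because the tissue was profiled in bulk, a different number of cells of a type and a different amount of RNA per cell cannot be told apart.

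**Figure D1:**
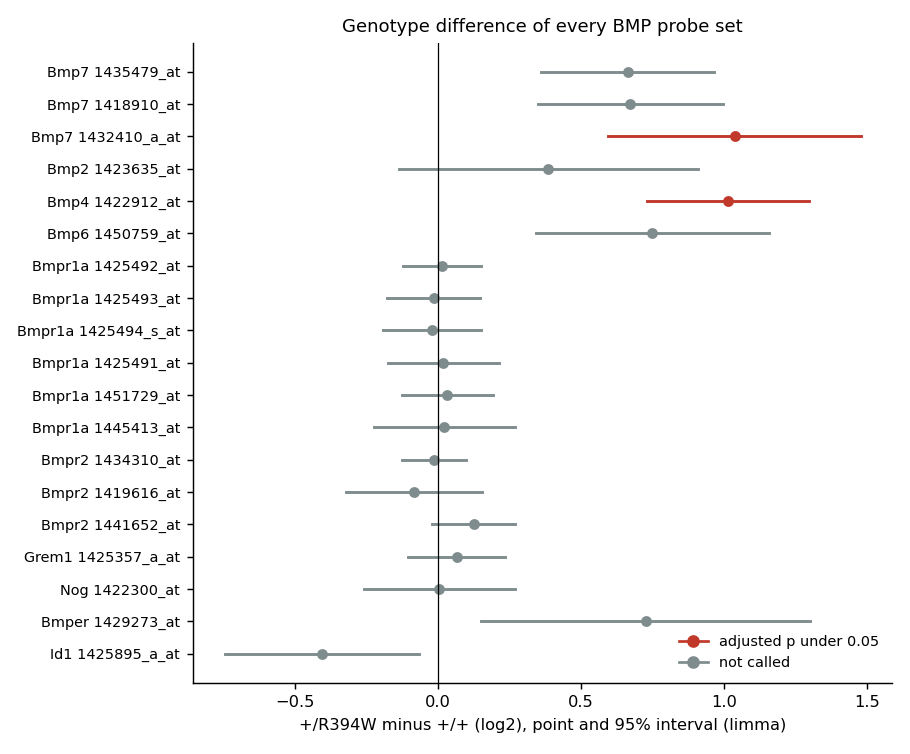
Change in log2 expression (Wt1 +/R394W minus Wt1 +/+, horizontal axis) for each of the 19 probe sets, with points for the estimate, bars for the 95% interval from limma, and red for an adjusted p under 0.05. The ligand probe sets lie to the right of 0, from 0.39 (Bmp2) to 1.04 (Bmp7 1432410_a_at), and the receptor probe sets lie between -0.08 and 0.12.

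Bmp4, which encodes a ligand needed for the growth of the ureter and the nephric duct, had the smallest p of the 10 genes. Its probe set (1422912_at, chromosome 14) read 9.88, 9.60, 10.02, 10.30 and 10.23 in the Wt1 +/R394W mice, against 8.92, 9.26, 8.86, 8.99 and 8.94 in the Wt1 +/+ mice. Every mutant lay above every wild type, with a gap of 0.34 between the lowest mutant and the highest wild type. The means were 10.01 ± 0.28 in Wt1 +/R394W and 8.99 ± 0.15 in Wt1 +/+ glomeruli (SD, n = 5 each), a change of 1.01 ± 0.13 (SE) or 2.02-fold, with a limma adjusted p of 0.00342. Only 87 probe sets of the array had a smaller p, and 0.389% of all probe sets had a change of at least that size. The call held without each of the 10 mice in turn, with limma adjusted p of 0.0145 at most. With a tubule score as a covariate the change was 1.02 ± 0.14 (SE) for the proximal and 1.03 ± 0.13 (SE) for the distal list. It was lost when mutants 1 to 4 were compared with wild types 2 to 4, the mice with neighbouring animal numbers (change 0.92, limma adjusted p = 0.103).

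Bmp7 was represented by 3 probe sets on chromosome 2, all of them with the genotypes apart. The probe set with the highest mean (1435479_at) read 10.48, 10.33, 10.15, 10.10 and 10.65 in the Wt1 +/R394W mice, against 9.99, 9.90, 9.37, 9.57 and 9.57 in the Wt1 +/+ mice. The lowest mutant was 0.11 above the highest wild type, so the separation was narrow. The means of 10.34 ± 0.23 in Wt1 +/R394W and 9.68 ± 0.26 in Wt1 +/+ glomeruli (SD, n = 5 each) gave a change of 0.66 ± 0.14 (SE), a 1.58-fold difference, which was not called (limma adjusted p = 0.0545). By exact permutation of the genotypes its two-sided p was 0.00794 without adjustment, the smallest that 5 mice against 5 allow. Any probe set with the genotypes apart gets this p, so it adds nothing to the separation.

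The second Bmp7 probe set (1418910_at) read 9.26, 9.21, 9.13, 8.99 and 9.86 in the Wt1 +/R394W mice, against 8.72, 8.82, 8.40, 8.57 and 8.56 in the Wt1 +/+ mice. Its change of 0.67 ± 0.15 (SE) had a limma adjusted p of 0.0704. The third (1432410_a_at) read 8.83, 8.78, 8.63, 8.53 and 9.68 in the Wt1 +/R394W mice, against 8.13, 8.02, 7.58, 7.93 and 7.59 in the Wt1 +/+ mice. It was the called one, with a change of 1.04 ± 0.20 (SE), a 2.05-fold difference, and a limma adjusted p of 0.0395. The name of this probe set ends in _a_at, which marks a set that can match several transcripts of its gene. Mutant 5 was highest and mutant 4 lowest among the mutants in all 3 probe sets, which were read from the same RNA and are not independent of each other. Without mutant 5 the changes were 0.59 (1435479_at, limma adjusted p = 0.111), 0.53 (1418910_at, limma adjusted p = 0.0350) and 0.84 (1432410_a_at, limma adjusted p = 0.0147). With the mice of neighbouring animal numbers only, 1432410_a_at was the single member probe set called (0.85, limma adjusted p = 0.0485).

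Averaged over its 3 probe sets, Bmp7 read 9.51 ± 0.33 in Wt1 +/R394W and 8.72 ± 0.21 in Wt1 +/+ glomeruli (SD, n = 5 each). In a fit on such means over 18193 genes the change was 0.79 ± 0.15 (SE) with a limma adjusted p of 0.0291. The call of Bmp7 thus depended on how the probe sets were used and on which mice entered. The change of 1435479_at was between 0.59 and 0.74 under the alternatives tried on that probe set, with a limma adjusted p from 0.0434 to 0.192. All 60 Bmp7 changes under alternatives, those of the 3 probe sets and of their mean, were positive. Because every mutant lay above every wild type in all 3 probe sets, leaving out mice could not turn the sign. The 60 changes reuse the same mice, so their number is not independent support. The call of 1432410_a_at was lost without any 1 mouse except mutant 4 or mutant 5 (limma adjusted p up to 0.0985).

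Tubule levels were set beside Bmp7 mouse by mouse. Mutant 5, with the highest Bmp7 value, and mutant 4, with the lowest among mutants, had proximal tubule scores of 7.09 and 10.66, while wild type 5, with a score of 6.99, read 9.57. With the distal nephron score as a covariate the changes were 0.69 (1435479_at, limma adjusted p = 0.0434), 0.72 (1418910_at, limma adjusted p = 0.0166) and 1.08 (1432410_a_at, limma adjusted p = 0.0193). With the proximal score they were 0.68, 0.72 and 1.08, with limma adjusted p-values of 0.0530, 0.0261 and 0.0265. The podocyte markers averaged 13.06 to 13.28 in Wt1 +/R394W and 13.16 to 13.29 in Wt1 +/+ glomeruli. The 9 mesangial and smooth muscle markers averaged 10.80 to 11.23 in Wt1 +/R394W, highest in mutant 5, and 10.68 to 10.86 in Wt1 +/+ glomeruli, with 4 of 5 mutants above the highest wild type. None of the 9 was called, and the changes of the smooth muscle genes Acta2 and Tagln were 0.89 ± 0.27 (SE, limma adjusted p = 0.243) and 0.77 ± 0.28 (SE, limma adjusted p = 0.369). These were the largest of the 9, whose median was 0.12. The others were negative for Des (-0.15), Pdgfrb (-0.12) and Gja4 (-0.10). They were positive for Agtr1a (0.03), Itga8 (0.12), Myh11 (0.13) and Cnn1 (0.19). Of 11 macrophage and lymphocyte markers 1 fell, the macrophage receptor gene Csf1r, by 0.99 on the log2 scale (limma adjusted p = 0.0220). Of all genes 0.698% were called lower. The other markers of this list did not follow Csf1r: their changes ran from -0.19 (Cd52) to 0.21 (C1qa), and the median of the 11 was 0.01. The endothelial gene Nos3 was lower in every mutant than in any wild type, with a change of -0.37 ± 0.08 (SE, limma adjusted p = 0.0863). Of all probe sets 1.48% were apart and lower. None of the 11 endothelial markers was called, and their median change was -0.07. Apart from Nos3 their changes ran from -0.25 (Flt1) to 0.13 (Plvap). The 8 interstitial fibroblast and 7 parietal epithelium markers had median changes of -0.01 and -0.05, and none was called. Among them Col3a1 changed by 1.01 ± 0.28 (SE, limma adjusted p = 0.186), the other fibroblast markers by -0.28 (Pdgfra) to 0.20 (Col1a1). The parietal markers ran from -0.48 (Ncam1, limma adjusted p = 0.0944) to 0.68 (Cldn1). The marker genes Acta2, Tagln, Csf1r, Nos3, Col3a1 and Ncam1 were picked with their values in view. The part of mesangial, immune, endothelial, fibroblast and parietal cells in the ligand differences was not tested.

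**Figure D2:**
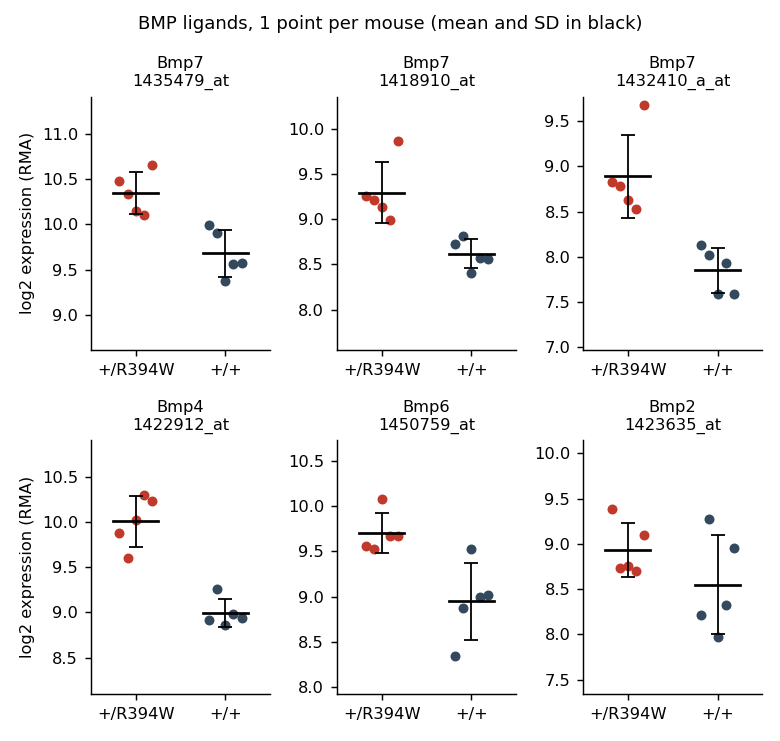
Log2 expression (vertical axis) of the 6 ligand probe sets, with 1 point per mouse, Wt1 +/R394W in red on the left and Wt1 +/+ in dark blue on the right, and black bars for the mean and SD of 5 mice. All panels span the same range of log2 units, and the genotypes are apart in the 3 Bmp7 panels and in Bmp4, touch in Bmp6 and overlap in Bmp2.

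**Figure D3:**
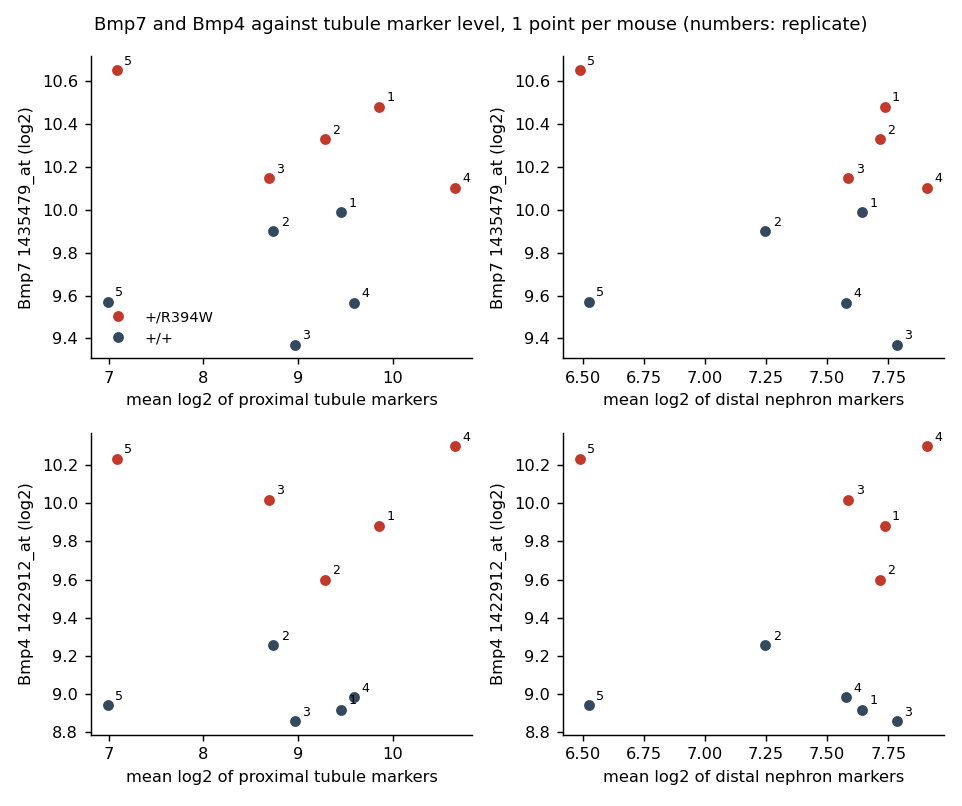
Log2 expression of Bmp7 (1435479_at, top) and Bmp4 (1422912_at, bottom) against the mean log2 level of proximal tubule markers (left) and distal nephron markers (right), with 1 point per mouse and its replicate number, Wt1 +/R394W in red and Wt1 +/+ in dark blue. In both probe sets every mutant lies above every wild type, which would show against any horizontal axis, so the panels do not test the part of tubule RNA. Both mice numbered 5 sit at the low end, with proximal scores of 7.09 and 6.99.

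Bmp6, a ligand best known from iron sensing in the liver, did not pass the test. Its probe set (1450759_at, chromosome 13) read 9.56, 9.52, 10.08, 9.67 and 9.67 in the Wt1 +/R394W mice, against 8.34, 8.87, 9.53, 8.99 and 9.02 in the Wt1 +/+ mice. The mutants were the higher ones except that wild type 3, at 9.53, lay just above mutant 2. The change of 0.75 ± 0.19 (SE), 1.68-fold, had a limma adjusted p of 0.123, and without wild type 3 it was 0.89 with a limma adjusted p of 0.0349.

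Bmp2, the closest relative of Bmp4 among the ligands, varied more between mice than between genotypes. It read 9.39, 8.74, 8.75, 8.70 and 9.09 in the Wt1 +/R394W mice, against 8.21, 9.28, 7.97, 8.33 and 8.96 in the Wt1 +/+ mice (1423635_at, chromosome 2). The groups overlapped, and the change of 0.39 ± 0.24 (SE) had a limma adjusted p of 0.688 with a 95% interval from -0.14 to 0.91.

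The 250 bases before the transcription start of Bmp4 and Bmp6, the ligand genes with a promoter entry, are set out with those of the receptor gene Bmpr1a, which did not differ. They were taken from RefSeq (GRCm38.p6), whose table held 6 of the 10 genes, read 5′ to 3′ on the strand of the gene. Capitals mark matches on either strand of GGGCGG (a GC box) or of GCGNGGGNG, a pattern of the EGR and WT1 type, and some matches of both overlap.
Bmp4 (chr14:46390670-46390919, minus strand): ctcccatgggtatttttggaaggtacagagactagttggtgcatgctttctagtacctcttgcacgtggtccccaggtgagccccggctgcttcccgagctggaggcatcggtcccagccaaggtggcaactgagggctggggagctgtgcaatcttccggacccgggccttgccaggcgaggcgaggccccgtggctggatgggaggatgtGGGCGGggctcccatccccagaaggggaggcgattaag
Bmp6 (chr13:38345466-38345715, plus strand): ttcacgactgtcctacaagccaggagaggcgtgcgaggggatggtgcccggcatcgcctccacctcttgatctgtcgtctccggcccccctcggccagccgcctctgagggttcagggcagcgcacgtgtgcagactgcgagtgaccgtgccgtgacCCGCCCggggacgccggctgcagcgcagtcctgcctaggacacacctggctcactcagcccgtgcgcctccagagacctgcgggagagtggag
Bmpr1a (chr14:34502547-34502796, minus strand): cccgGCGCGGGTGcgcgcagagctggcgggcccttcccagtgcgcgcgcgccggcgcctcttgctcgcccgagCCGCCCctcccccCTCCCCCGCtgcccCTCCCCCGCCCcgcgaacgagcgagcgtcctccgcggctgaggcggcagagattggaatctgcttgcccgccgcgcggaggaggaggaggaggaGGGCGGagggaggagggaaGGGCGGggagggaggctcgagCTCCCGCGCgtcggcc
The Bmp4 and Bmp6 stretches held 1 GC box each, 38 and 93 bases before the start counted from the first base of the match, and no match to GCGNGGGNG. The Bmpr1a stretch held 4 GC boxes and 4 matches to GCGNGGGNG. Both patterns are rich in G and C, which made up 63.2% of the Bmp4, 68.8% of the Bmp6 and 78.8% of the Bmpr1a stretch. The counts of matches are therefore not compared between these genes, of which only Bmp4 was called. Of the stretches not printed, that of Bmper held 1 GC box and 1 match to GCGNGGGNG, 72 bases before the start, while those of Bmpr2 and Grem1 held 1 and 3 GC boxes and no match to GCGNGGGNG. Of the 32851 stretches of the same length in the table, 32.7% held a GC box and 10.5% held GCGNGGGNG. Another pattern, GGCGCC, a GC-rich element known from BMP-responsive promoters, was present in 9.59% of all stretches, once each in those of Bmpr1a, Bmpr2 and Grem1 and not in those of Bmp4, Bmp6 and Bmper. A match describes the letters only, and no data on binding were used here.

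Neither receptor gene differed beyond the spread between mice. Bmpr1a, the type I receptor, had 6 probe sets on chromosome 14, and the one with the highest mean (1425492_at) read 11.50, 11.45, 11.48, 11.33 and 11.50 in the Wt1 +/R394W mice, against 11.47, 11.55, 11.37, 11.33 and 11.46 in the Wt1 +/+ mice. The genotypes overlapped fully, with a change of 0.015 ± 0.062 (SE), a 95% interval from -0.12 to 0.15 and a limma adjusted p of 0.964. Changes of the 5 other Bmpr1a probe sets lay between -0.021 and 0.032. In 1425491_at, 1425493_at and 1425494_s_at mutant 5 was the highest of all mice, at 10.19, 10.10 and 10.11, as it was in the Bmp7 probe sets.

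Bmpr2, the type II receptor, was as even. Its brightest probe set (1434310_at, chromosome 1) read 12.75, 12.73, 12.80, 12.81 and 12.66 in the Wt1 +/R394W mice, against 12.76, 12.75, 12.79, 12.74 and 12.78 in the Wt1 +/+ mice. The change of -0.013 ± 0.052 (SE) had a 95% interval from -0.13 to 0.10 and a limma adjusted p of 0.961. The 2 other probe sets of Bmpr2 changed by -0.08 (1419616_at) and 0.12 (1441652_at). Averaged over the probe sets of each gene, the changes were 0.0085 ± 0.054 (SE) for Bmpr1a and 0.0098 ± 0.051 (SE) for Bmpr2, with limma adjusted p-values of 0.976 and 0.971.

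Among the antagonists and modulators, Grem1 and Nog gave weak signals. Grem1, which encodes gremlin, an antagonist of BMP2, BMP4 and BMP7, read 5.35, 5.27, 5.35, 5.35 and 5.18 in the Wt1 +/R394W mice, against 5.13, 5.03, 5.29, 5.39 and 5.33 in the Wt1 +/+ mice (1425357_a_at, chromosome 2). Nog, which encodes noggin, read 4.97, 5.09, 5.15, 4.53 and 4.66 in the Wt1 +/R394W mice, against 4.98, 4.75, 5.02, 4.83 and 4.79 in the Wt1 +/+ mice (1422300_at, chromosome 11). Mean signals stood at the 33.5th percentile of all probe sets for Grem1 and at the 27.4th for Nog, and the deposited values carry no detection call, so whether either transcript was above background is not settled. Their changes were 0.07 ± 0.08 (SE, limma adjusted p = 0.855) for Grem1 and 0.0055 ± 0.12 (SE, limma adjusted p = 0.994) for Nog.

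Bmper, which encodes a secreted BMP binding protein that can act for or against the ligands, was higher on average but spread widely. It read 6.78, 6.91, 7.34, 6.62 and 6.37 in the Wt1 +/R394W mice, against 5.10, 6.40, 6.58, 6.32 and 5.99 in the Wt1 +/+ mice (1429273_at, chromosome 9). Of the 5 mutants 4 lay above the highest wild type, and wild type 1 was far below the rest. The change of 0.73 ± 0.26 (SE) did not pass (limma adjusted p = 0.369), and without wild type 1 it was 0.48 with a limma adjusted p of 0.492.

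Id1, an inhibitor of basic helix-loop-helix factors and a common readout of BMP signalling, had a negative change. It read 11.53, 11.07, 11.18, 11.44 and 11.29 in the Wt1 +/R394W mice, against 11.67, 12.04, 11.20, 12.02 and 11.60 in the Wt1 +/+ mice (1425895_a_at, chromosome 2). All 5 mutants were below the wild-type median, although wild type 3 was as low as the mutants. The change of -0.40 ± 0.16 (SE) had a 95% interval from -0.75 to -0.06 and a limma adjusted p of 0.414. It was negative under every alternative tried, from -0.53 to -0.32, and was called under none.

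**Figure D4:**
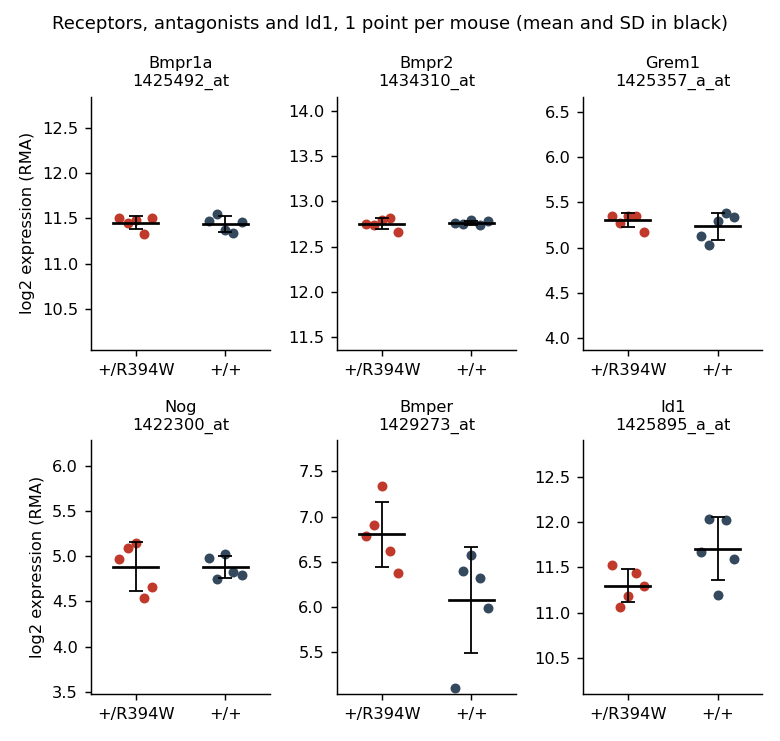
Log2 expression (vertical axis) of the probe set with the highest mean for both receptors, the 3 antagonist and modulator genes and Id1, with 1 point per mouse, Wt1 +/R394W in red on the left and Wt1 +/+ in dark blue on the right, and black bars for the mean and SD of 5 mice. The receptor points lie within narrow bands, Bmper spreads from 5.10 to 7.34, and the Id1 mutants lie lower on average (11.30 in Wt1 +/R394W, 11.71 in Wt1 +/+).

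Further genes of the pathway were read from 6 lists of 85 genes, of which 80 were measured, with 1 probe set per gene. Of these, 1 rose (Sost) and 1 fell (Pcsk6), beside 0.566% of all 18193 genes called higher, 0.698% called lower and 1.26% called in either direction. The genotypes were apart in 5 of the 80, beside 3.67% of all genes. The median change of the 80 genes was 0.0038, against 0.0043 over all genes. With 1 probe set per gene, that of the highest mean, the 10 member genes gave 1 call (Bmp4). Under this choice the genotypes were apart in 2 of the 10, both higher, beside 1.7% of all genes. Members and lists were both chosen with earlier results of these data known, so these counts do not test them.

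None of the 10 other ligand genes passed, and their median change was -0.03. Gdf10, a BMP-related ligand also called BMP3B, changed by 0.31 ± 0.14 (SE, limma adjusted p = 0.533), and Gdf5, a ligand of joint development, by -0.59 ± 0.34 (SE, limma adjusted p = 0.662). None of the 12 receptor and co-receptor genes passed either, and their median change was -0.09. The genotypes were apart in 1 of them, the co-receptor gene Rgma, by a change of 0.16 ± 0.06 (SE, limma adjusted p = 0.373). The type I receptor gene Bmpr1b changed by -0.38 ± 0.18 (SE, limma adjusted p = 0.567), the activin receptor gene Acvr1b by -0.20 ± 0.09 (SE, limma adjusted p = 0.526) and Hjv, the iron-related co-receptor hemojuvelin, by -0.22 ± 0.08 (SE, limma adjusted p = 0.414). Bmp10 (-0.15) and Gdf11 (-0.07), further ligands named for their small p, were not called.

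Of 18 extracellular antagonists and modulators, Sost rose. It encodes sclerostin, a protein of the gremlin family that is best known as a Wnt antagonist. Sost read 6.96, 7.25, 8.20, 8.40 and 8.64 in the Wt1 +/R394W mice, against 5.89, 6.85, 6.11, 6.26 and 6.27 in the Wt1 +/+ mice. Every mutant was above every wild type, by 1.61 ± 0.31 on average (SE, 1450179_at, limma adjusted p = 0.0395), but the call held without only 3 of the 10 mice (wild type 2, mutant 1 or mutant 2). Its second probe set (1421245_at) changed by 0.51 ± 0.21 (SE, limma adjusted p = 0.475). Fstl1, a follistatin-like protein that binds BMP4, gave a change of 0.45 ± 0.10 (SE, limma adjusted p = 0.0912) for 1416221_at. Its other probe set, 1448259_at, singled out after its values were seen, had the genotypes apart and passed (0.38 ± 0.07 SE, limma adjusted p = 0.0415), a call lost without any 1 of the 10 mice (limma adjusted p up to 0.113). Sostdc1, the kidney BMP antagonist also called USAG-1, changed by 0.27 ± 0.54 (SE, limma adjusted p = 0.919), and Crim1, a membrane protein that tethers BMPs, by 0.36 ± 0.31 (SE, limma adjusted p = 0.793), both named after their values were seen. Kcp, an enhancer of BMP7 signalling and likewise named afterwards, changed by 0.00056 ± 0.10 (SE, limma adjusted p = 0.999). Dand5 (-0.08) and Vwc2 (-0.13), the other antagonists with small p, were not called.

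Among 8 proteases that process ligands or antagonists, Pcsk6 fell and no other passed. It encodes a proprotein convertase, of the family that cleaves BMP precursors, and read 8.20, 8.02, 8.21, 7.93 and 8.05 in the Wt1 +/R394W mice, against 9.98, 10.62, 9.85, 9.92 and 10.48 in the Wt1 +/+ mice. The change of -2.09 ± 0.15 (SE, 1426981_at, limma adjusted p = 4.77e-05) held without each mouse in turn. Furin, the convertase most often tied to BMP processing and named after its values were seen, changed by 0.13 ± 0.10 (SE, limma adjusted p = 0.756). Pcsk7 was lower in every mutant than in any wild type, but by -0.12 ± 0.05 (SE) and with a limma adjusted p of 0.504. Bmp1, which encodes not a ligand but a metalloprotease that cleaves the antagonist chordin, changed by 0.21 ± 0.11 (SE, limma adjusted p = 0.612), and its relative Tll1 by 0.17 ± 0.07 (SE, limma adjusted p = 0.436) at a signal near the bottom of the array.

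The 19 genes of signal transduction inside the cell were the most even group, with changes between -0.15 and 0.09 and none called. Bambi, a decoy receptor, changed by -0.15 ± 0.09 (SE), the kinase gene Map3k7 by 0.09 ± 0.07 (SE), the nuclear envelope SMAD inhibitor Lemd3 by -0.11 ± 0.07 (SE) and the ubiquitin ligase gene Rnf111 by -0.05 ± 0.06 (SE), with limma adjusted p-values of 0.670, 0.772, 0.726 and 0.852. No target gene of 16 was called, and 7 of them had a positive change. Id3 read 12.14, 11.92, 12.17, 12.16 and 12.15 in the Wt1 +/R394W mice, against 12.22, 12.40, 12.20, 12.50 and 12.41 in the Wt1 +/+ mice, apart but by only -0.24 ± 0.08 (SE, limma adjusted p = 0.298). The change was negative in all 4 Id genes, with Id2 at -0.12 ± 0.21 (SE) and Id4 at -0.19 ± 0.17 (SE), and none was called. Hey1, a target shared with Notch, changed by -0.35 ± 0.12 (SE, limma adjusted p = 0.290), while Atoh8 (0.35 ± 0.16 SE, limma adjusted p = 0.525) and the homeobox gene Dlx5 (0.24 ± 0.11 SE, limma adjusted p = 0.543) had positive changes.

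**Figure D5:**
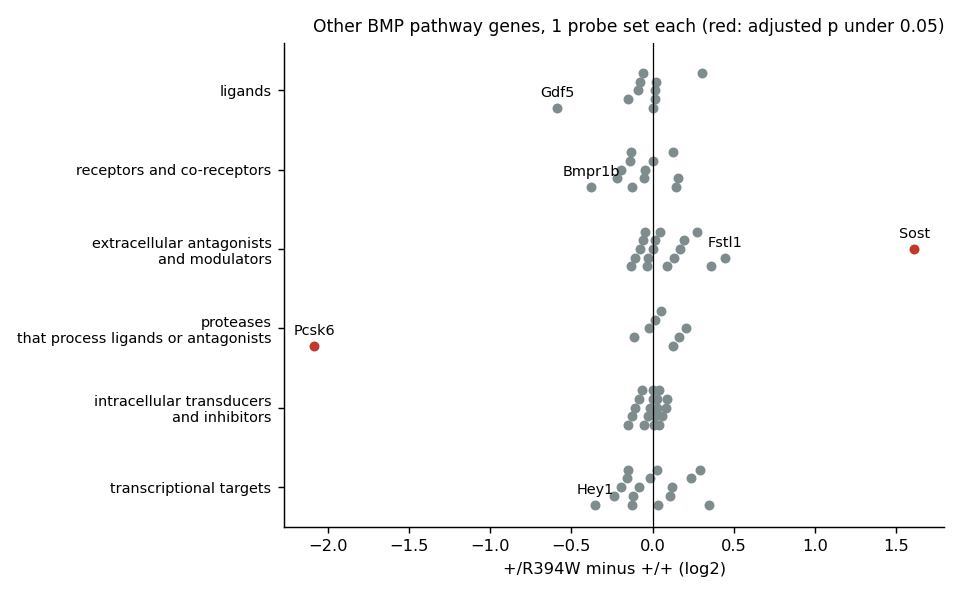
Change in log2 expression (Wt1 +/R394W minus Wt1 +/+, horizontal axis) of 80 other BMP pathway genes by list, with 1 point per gene (Bambi, Smad6 and Smad7 stand in both of their lists) and red for an adjusted p under 0.05. Pcsk6 (-2.09) and Sost (1.61) stand apart, while the transducers lie between -0.15 and 0.09.

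The genes whose profile over the 10 arrays lay closest to that of Bmp7 (1435479_at) were found by the root mean square difference between values centred on each gene's mean, over 18183 other genes. They were the cytoskeletal scaffold gene Iqgap1 (0.170), the mitochondrial gene Romo1 (0.176), the myosin light chain gene Myl9 (0.177), the membrane protein gene Lrp11 (0.189) and the Notch ligand gene Jag1 (0.192), in log2 units. Of these, 3 (Romo1, Myl9 and Jag1) lie on chromosome 2, as do Wt1 and 4 of the 10 member genes, Bmp7 among them. On that chromosome lie 7.76% of measured genes. Whether other chromosome 2 sequence inherited with the R394W allele differed between the genotypes was not tested. The likeness to Bmp7 describes 10 arrays that include the genotype difference itself. A change of these genes near that of Bmp7 thus follows from how they were picked, and their calls are no separate support. Of all genes 0.566% were called higher. Jag1 (0.67 ± 0.12 SE), Lrp11 (0.53 ± 0.09 SE) and Myl9 (0.58 ± 0.11 SE) were called, with limma adjusted p-values of 0.0240, 0.0198 and 0.0330, while Romo1 (0.54 ± 0.11 SE) and Iqgap1 (0.39 ± 0.12 SE) were not (limma adjusted p = 0.0520 and 0.262). The calls of Jag1, Lrp11 and Myl9 held without 3, 6 and 2 of the 10 mice in turn.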

How the data were processed

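The authors deposited log2 values, made with RMA per the submitters' processing notes (version and settings: not given in the sources used here). RMA compresses changes of weak signals. Each of the 10 columns was matched to a mouse through its label, the labels gave the genotypes, and mice were numbered within a genotype in accession order. Nothing in the labels gives litters or batches. Of 45101 probe sets, 64 controls were left out. The platform annotation named 1 gene for 34945 probe sets, and the probe set with the highest mean stood for a gene where 1 per gene was used, which gave 18193 genes. The test was limma's (version 3.58.1, under R version 4.3.3) over all 45037 probe sets, without covariates, with Benjamini-Hochberg adjustment of two-sided p-values. Single values were also tested by exact permutation. The fit was tested on simulated data. The genes, lists and naming rule were chosen with earlier results of these data known. Text names every member probe set, called genes, the 4 smallest p of each list, and the 5 genes most like Bmp7. Alternatives covered scaling, filters on mean signal at 5 or 6, variance models, array weights, tubule scores as covariates, gene means, subsets of mice and the threshold. Chromosomes came from RefSeq (GRCm38.p6). Precision is limited by the number of arrays. Figures used matplotlib (version 3.10.9) in Python (version 3.11.15).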

Additional observations from a re-analysis of the deposited data

Results flagged for a closer look

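Within a genotype, a mouse was set aside for a closer look where its distance to the nearest other mouse exceeded 0.71 of the range of the 5 mice. Chance alone marks about 1 in 20 groups, and 10 of 96 groups were marked here. Mutant 5 was high at 9.68 for Bmp7 (1432410_a_at, next mutant 8.83), at 10.11 for Bmpr1a (1425494_s_at, next 9.83) and at 10.19 for Bmpr1a (1425491_at, next 9.84). Mutant 3 was high for Bmp6 (1450759_at) at 10.08, with the next at 9.67, and mutant 4 was low for Bmpr1a (1425492_at) at 11.33, with the next at 11.45. Mutant 1 was low for Acvr1b at 9.75 (next 10.06), and mutant 2 was low for Id3 at 11.92 (next 12.14). Wild type 3 was high for Bambi at 10.49 (next 10.26) and for Gdf5 at 7.94 (next 6.76), and wild type 1 was high for Romo1 at 11.60 (next 11.09).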

How the results depend on the processing

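Under the alternatives tried, Bmp4 kept its call in 20 of 21 (limma adjusted p from 0.00115 to 0.103), and no member gene kept one throughout. The change of Bmp7 (1435479_at) passed the threshold, unlike in the fit reported first, with filters on mean signal of at least 5 or 6 or an intensity trend with robust variances (0.66 in each), with the distal nephron score (0.69) and, when 1 mouse was left out, without wild type 1. The mean of the 3 Bmp7 probe sets, another measure of the gene, changed by 0.79 and passed. With 1 mouse left out the change of 1435479_at ranged from 0.59 to 0.74. The number of member probe sets called then ranged from 1 to 3, that of all probe sets from 216 to 301 and that of pathway genes from 1 to 2. Member probe sets called numbered 1 once sets matching several transcripts were dropped, 4 with the distal nephron score, 1 with mice of close animal numbers only (Bmp7 1432410_a_at) and 4 at an adjusted p under 0.1. All probe sets called were 384 in the main setting, 110 with close animal numbers only (58 higher, 52 lower), 580 at an adjusted p under 0.1, 242 without wild type 1 and 216 without wild type 4. Pathway genes called fell to 1 with the intensity trend and with close animal numbers, in both cases losing Sost (limma adjusted p = 0.0520 and 0.388). Changes that switched sign were near 0 and called under no alternative. They were Bmpr1a 1425492_at (-0.0048 with repeated quantile normalization), 1425491_at (-0.020 with array weights, -0.044 with close animal numbers), 1425493_at (0.011 with the proximal and 0.0067 with the distal score), 1425494_s_at (0.00079 with the proximal score) and 1445413_at (-0.012 with close animal numbers), Bmpr2 1434310_at (0.013 with close animal numbers, 0.0098 as a gene mean) and Nog (-0.014 with the distal score). With 1 mouse left out, changes ranged from -0.062 to 0.092 for Nog, from -0.029 to 0.0096 for Bmpr2 1434310_at, and for Bmpr1a from -0.061 to 0.057 (1425491_at), -0.011 to 0.046 (1425492_at), -0.075 to 0.011 (1425493_at), -0.085 to 0.0045 (1425494_s_at), -0.031 to 0.10 (1445413_at) and -0.0085 to 0.066 (1451729_at). The causes of these dependences were not tested. No paired analysis was possible because the labels give no number, litter or batch that joins a mutant to a wild type. No detection calls come with the deposited values, so weak signals such as those of Grem1 and Nog cannot be set against background.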
